A study of Mus musculus with 18 samples.

Results

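Ibrutinib, a covalent inhibitor of Bruton's tyrosine kinase that also binds other kinases with a matching cysteine, was compared with its solvent DMSO in CD8+ T cells that had been stimulated with peptide either repeatedly or a single time. The question addressed here is which transcripts the drug moved in the same direction in both kinds of cells. The comparison was made over the 4 genotype tags of the labels with a library in every combination of stimulation and treatment, so that 16 of the 18 libraries of the series were used, 8 with ibrutinib and 8 with DMSO. They formed 8 pairs of an ibrutinib library and the DMSO library of the same tag and stimulation.

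All cells were CD8+ T cells purified from mice carrying OT-I, a transgenic T cell receptor for an ovalbumin (OVA) peptide, and were cultured with IL-15 and IL-7. Repeat peptide stimulated cells received OVA peptide at 10 ng/ml every day up to day 5 and, per the study's methods, also had peptide in the medium during drug treatment from day 5 to day 8. Single peptide stimulated cells saw the peptide once and were then rested, so that peptide was present beside the drug in 1 of the 2 stimulations. Both were given 1 µM ibrutinib or DMSO from day 5 for 3 days and were lysed on day 8, giving the groups repeat DMSO, repeat ibrutinib, single DMSO and single ibrutinib with 4 libraries each. The genotype entries of the labels, called tags here, served as the block in the fits: INHB-1 left over is called A, btk KO-6 is B, BTK KO-1 is C and BTK KO-3 is D. So 3 of the 4 tags name a *Btk* knockout, while the strain entry reads OT-1 mice WT for every library, and the sources used here do not settle which holds. Drug and DMSO libraries of a pair carry the same tag. Raw counts of *Btk* lay between 0 and 27 in the 16 libraries, too few to check a *Btk* genotype. The ages of the mice are not given in the sources used here, and neither is whether the libraries of a tag came from 1 mouse, so the p-values measure the spread between these samples, which may be technical.

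By way of background, the T cell receptor (TCR) signals through the Src family kinase LCK, the adaptor LAT and kinases of the Tec family, which activate phospholipase C-γ1. Downstream of it, calcium, RAS-ERK and NF-κB signaling induce immediate early and effector genes such as the NR4A nuclear receptors, *Irf4*, *Ifng* and the granzymes. The same signaling activates AKT and mTORC1, which support glycolysis, sterol synthesis and cell division and keep FOXO transcription factors out of the nucleus. FOXO1 and KLF2 drive receptors of resting and memory T cells such as IL-7Rα, CCR7 and S1PR1. TEC, TXK, BLK and JAK3 are among the kinases that share with BTK the cysteine that ibrutinib binds.

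The 16 libraries held between 23449518 and 51995372 expected counts (median 28601882). *Cd8a* ranged from 30010 to 48190 normalized counts in every library and *Cd4* did not exceed 2.48, where a normalized count is a library's count scaled to the mean effective library size. The summed level of the 8 B cell markers stayed between 57.1 and 206, and *Csf1r*, *Clec9a*, *Siglech* and *Cd4* had at most 3 counts in any library. The 10 myeloid markers summed to 1929 to 2204 in repeat DMSO, 2244 to 2911 in repeat ibrutinib, 2958 to 4421 in single DMSO and 2742 to 4162 in single ibrutinib, of which *Ctss*, which T cells also express, made up 1806 to 4301. The 8 dendritic cell markers summed to 536 to 1352 and 329 to 990.5 with repeat peptide, and to 104 to 159 and 51.5 to 115.5 with single peptide, each time DMSO first, and their part in the results was not tested. The 9 CD8 T cell markers summed to 114800 to 175900, the 4 CD4 T cell markers to 157.5 to 1235, the 5 innate lymphocyte markers to 416 to 3703 and the 5 erythroid and platelet markers to 11.1 to 122. Among single markers *Cd8b1* ranged from 7512 to 34010. Of the CD4 markers *Foxp3* reached 743 and *Zbtb7b* 1217, and of the innate markers *Kit* reached 2614 and *Klrb1c* 993. Of the dendritic markers *H2-Ab1* reached 762 and *Cd74* 659. The part of these genes in the results was not tested. More genes had a count with ibrutinib in 7 of 8 pairs, with a median difference of 1057 genes and a largest one of 3317 in the single peptide pair of tag D. The part of this difference in the results was not tested, and counts without the libraries concerned are given beside the results they change.

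Ibrutinib moved the expression of 1982 of 12213 tested genes (16.2%) over both stimulations together. Of these, 956 rose (7.83% of the tested genes) and 1026 fell (8.4%) in an edgeR quasi-likelihood fit with tag, stimulation and drug as terms. A gene was called at a Benjamini-Hochberg adjusted p below 0.05, a mean of at least 50 normalized counts and an absolute log2 fold change above 0.2. Among the called genes, 595 rose in all 8 pairs (4.87% of the tested genes) and 617 fell in all 8 (5.05%). With or without a call, the log2 ratio within the pairs was above 0 in all 8 for 838 genes (6.86%) and below 0 in all 8 for 781 (6.39%). In bulk RNA, fewer cells that express a gene and less of its RNA per cell cannot be told apart.

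The genes that moved one way in all 8 pairs mostly moved by little. The median log2 fold change was 0.37 for the 595 rising and -0.47 for the 617 falling genes, against 0.0084 over all tested genes. Only 22 of the 595 rose by more than 1 on the log2 scale, whereas 51 of the 617 fell by more than 1. Long noncoding RNAs made up 21 of the rising genes (3.53%) and 5 of the falling genes (0.81%), against 5.4% of all tested genes. The count of called genes was 1321 without the single ibrutinib library of tag D, 1323 without the repeat ibrutinib library of tag B, and between 1565 and 2116 without each of the others.

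**Figure D1:**
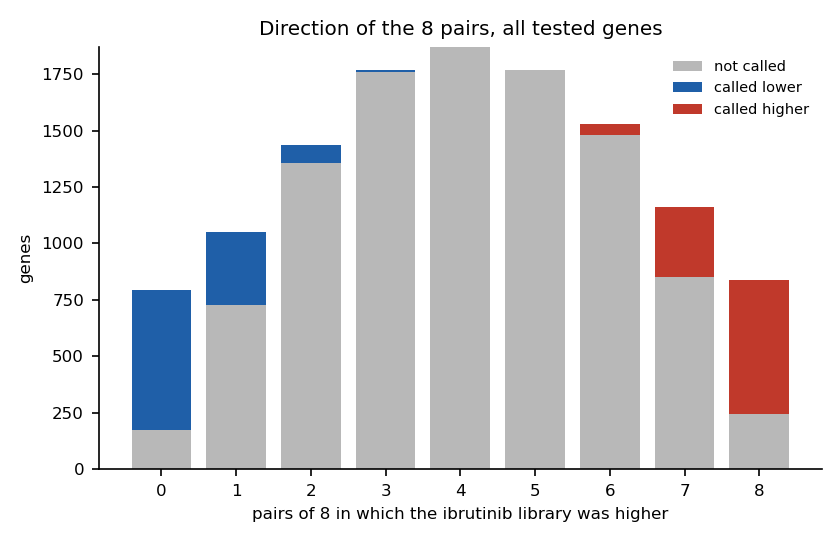
Number of tested genes (vertical axis) by the number of the 8 pairs in which the ibrutinib library was higher than its DMSO partner (horizontal axis), with called genes in red (higher) and blue (lower). The 595 red genes at 8 and the 617 blue genes at 0 are the genes described here. In grey are the genes that did not pass the test.

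The repeat and single peptide libraries were then analysed apart, which gives a pair of comparisons with no library in common. In repeat peptide stimulated cells 1766 genes were called (14.5%), and in single peptide stimulated cells 1999 (16.4%). Of the 930 genes called higher with repeat peptide, 263 were also called higher with single peptide. This was 28.3% of the first list and 30.0% of the 876 genes called higher with single peptide, while 7.17% of all tested genes were called higher with single peptide. The shared fallers numbered 262, which was 31.3% of the 836 called lower with repeat peptide and 23.3% of the 1123 called lower with single peptide. Here the background was 9.2% of all tested genes called lower with single peptide. Of the 595 genes that were called and rose in all 8 pairs, 245 were called in both of these fits and 69 in neither. Of the 617 that fell, 246 were called in both and 66 in neither. Over all 12213 tested genes 608 were called in both, whatever the directions, and 9056 in neither. The 595 and 617 genes were chosen from the same libraries, so their counts are a description and no test of agreement.

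Of the genes called higher with repeat peptide, 68 (7.31%) were called lower with single peptide, against 9.2% of all tested genes, and of those called lower with repeat peptide 15 (1.79%) were called higher with single peptide, against 7.17%. Of the risers with repeat peptide, 389 (41.8%) had a log2 ratio above 0 in all 4 single peptide pairs, as did 19.9% of all tested genes. The corresponding count for fallers was 363 (43.4%) against 17.2%. Over the 10486 genes with a mean of at least 50 normalized counts, the mean log2 ratios of the 4 repeat and 4 single pairs had a Pearson's r of 0.284, and over all 12213 tested genes one of 0.181, a description across genes, which are not independent replicates. The plot of both fold changes shows the called genes of the same direction in all 8 pairs at lower left and upper right. They lie there because they were selected by direction, so the plot does not test agreement between the stimulations. Most of them had small changes and lie near the origin.

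**Figure D2:**
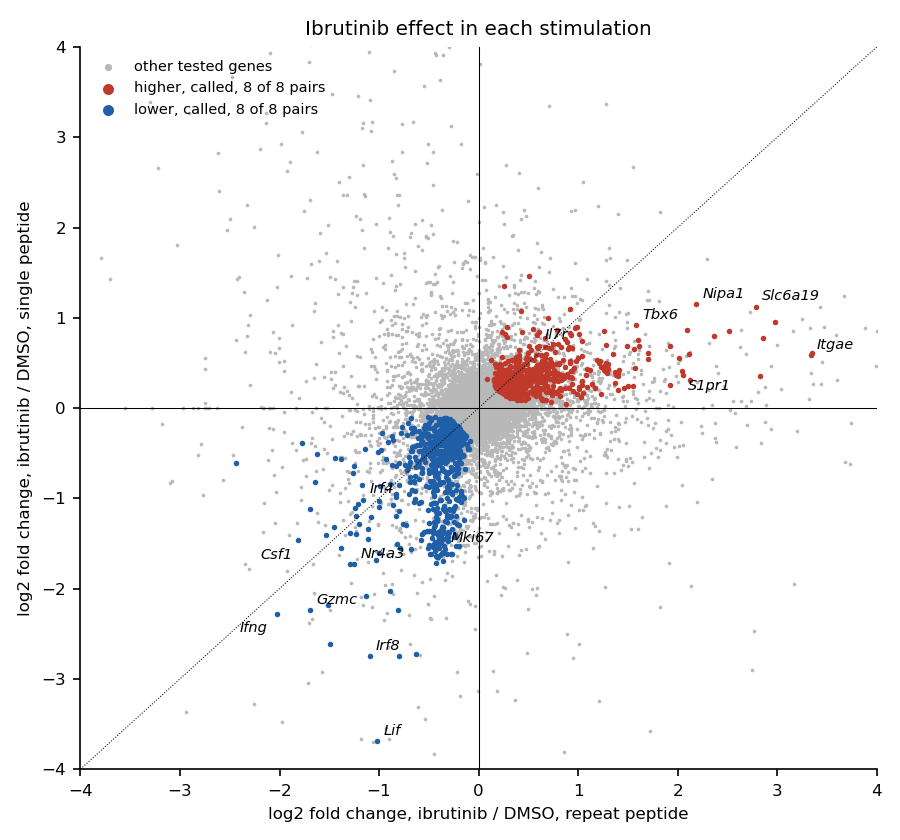
Log2 fold change of ibrutinib over DMSO in repeat peptide stimulated cells (horizontal axis) and single peptide stimulated cells (vertical axis), from separate fits of 8 libraries each. Each point is a tested gene, with red and blue for the 595 and 617 genes that were called and moved one way in all 8 pairs, and the dotted line marks equal effects. *Ifng* at -2.03 and -2.28 lies near that line, while *Itgae* at 3.34 and 0.58 and *Lif* at -1.02 and -3.69 lie far from it, and 37 genes lie beyond the axis limits of 4.

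Ranked by the smaller of the 2 stimulations' fold changes, *Nipa1* rose most. It encodes a magnesium transporter of the endosome and plasma membrane, and it was one of only 2 rising genes whose fold change was above 1 on the log2 scale in both stimulations. With repeat peptide it had 52.4, 46.5, 56.6 and 40.4 normalized counts with DMSO in tags A to D and 232, 248, 206 and 206 with ibrutinib. With single peptide the values were 196, 138, 197 and 181 with DMSO and 369, 349, 446 and 412 with ibrutinib. The groups did not overlap within either stimulation. The log2 fold change was 1.63 ± 0.17 (SE) over both (3.10-fold, adjusted p = 1.54e-04), made up of 2.18 with repeat and 1.15 with single peptide. The 2 effects differed by 1.04 (95% interval 0.56 to 1.52, adjusted p of the interaction 0.0132).

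*Slc6a19*, a neutral amino acid transporter, was the second of these genes. It had 3.57, 0, 13.0 and 0 normalized counts in repeat DMSO and 41.0, 31.4, 16.04 and 15.4 in repeat ibrutinib. In single peptide stimulated cells it had 375, 167, 52.2 and 43.6 with DMSO and 644, 177, 183 and 200 with ibrutinib. The ibrutinib library was higher in each pair, but the single peptide groups overlapped and tag B differed there by 0.08 on the log2 scale. The fold change of 1.49 ± 0.46 (adjusted p = 0.0410) lost its call when any 1 of 11 libraries was left out, with a highest adjusted p of 0.0911 without the repeat ibrutinib library of tag B.

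Other rising genes of the ranking were expressed at low levels in repeat peptide stimulated cells. *Vipr1*, a receptor for vasoactive intestinal peptide, went from 15.5, 16.2, 21.4 and 2.19 to 112, 73.4, 68.8 and 49.1 normalized counts with repeat peptide, and from 1480, 639, 953 and 1131 to 2707, 931, 1931 and 2216 with single peptide. *Tbx6*, a T-box transcription factor, rose by 1.21 ± 0.26 (adjusted p = 0.00586), with pair ratios between 0.69 and 2.63. *Mocos*, which activates molybdenum enzymes, had nearly equal effects of 0.97 and 0.89 (difference 0.12, interval -0.63 to 0.88). Its values were 77.4, 85.9, 85.7 and 69.9 against 165, 187, 152 and 126 with repeat peptide, and 85.2, 72.0, 46.9 and 130 against 164, 152, 114 and 165 with single peptide, so that the groups overlapped only with single peptide.

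*Wfikkn2*, a secreted protease inhibitor that binds myostatin, rose by 0.99 ± 0.24 (adjusted p = 0.0109). *Hpgds*, a prostaglandin D2 synthase, had a fold change of 1.44 ± 0.46 (adjusted p = 0.0434) and its smallest pair ratio was 0.00 to 2 decimals, in single peptide tag A with 137 and 137. It lost its call when any 1 of 12 libraries was left out, with a highest adjusted p of 0.116 without the single ibrutinib library of tag D. The noncoding RNAs *Gm30948*, *Gm42868* and *D730003I15Rik* rose by 1.57 ± 0.35, 1.02 ± 0.26 and 0.93 ± 0.22. *Gm42868* is annotated as sense intronic, so its reads cannot be told apart from unspliced RNA of the host gene.

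**Figure D3:**
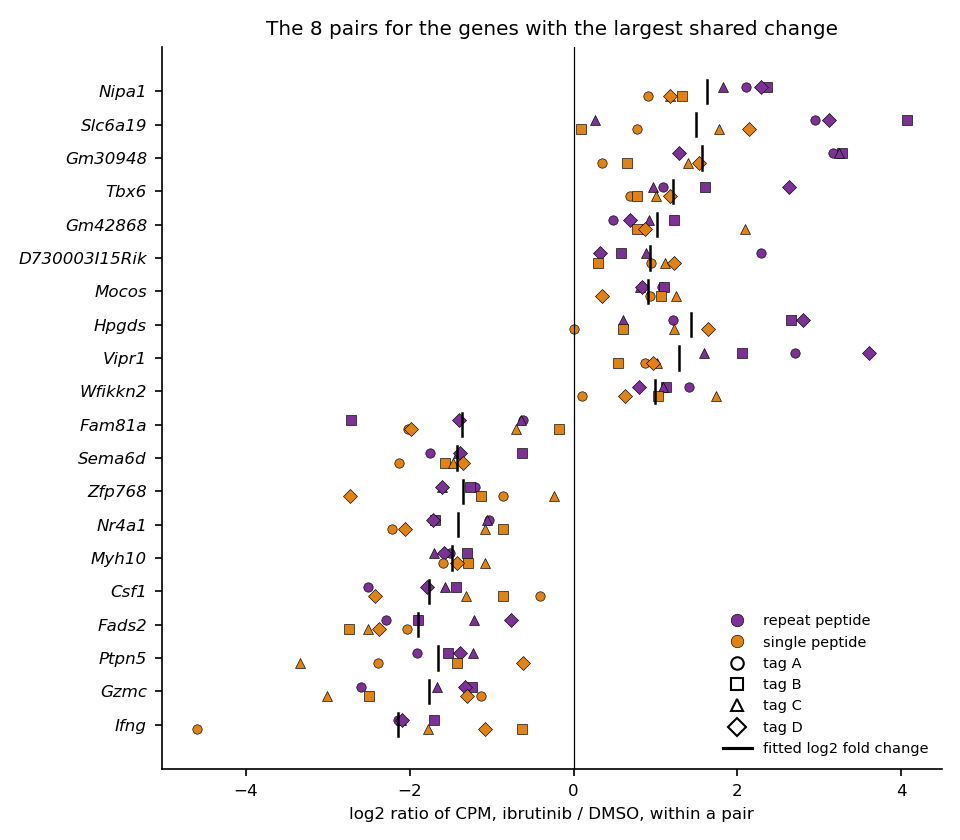
Log2 ratio of ibrutinib over DMSO in each of the 8 pairs (horizontal axis) for the 10 rising and 10 falling genes with the largest shared change. Purple points are repeat and orange points single peptide pairs, the marker shape gives the tag, and black bars give the fitted log2 fold change. All points of a gene lie on 1 side of 0, but *Slc6a19*, *Hpgds*, *Wfikkn2*, *Fam81a* and *Zfp768* have a pair within 0.25 of it.

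Among the falling genes *Ifng*, the cytokine interferon γ, ranked first. It had 439, 543, 912 and 1202 normalized counts in repeat DMSO and 98.1, 165, 210 and 280 in repeat ibrutinib. With single peptide the values were lower throughout, 93.4, 5.54, 53.5 and 31.3 with DMSO and 1.94, 2.88, 14.2 and 13.7 with ibrutinib. The repeat peptide groups did not overlap, and the single peptide groups overlapped because tag B had 5.54 with DMSO. The log2 fold change was -2.15 ± 0.40 (4.43-fold lower, adjusted p = 0.00447), with pair ratios from -4.60 to -0.63. The repeat and single effects of -2.03 and -2.28 are from the separate fits. In the joint fit with an interaction term they did not differ by the test (difference 0.52, interval -1.34 to 2.39). That interval leaves room for more than 2 log2 units.

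*Gzmc*, a granzyme of activated killer cells, fell by 1.77 on the log2 scale (SE 0.19, adjusted p = 3.11e-04). With repeat peptide it went from 5351, 5986, 7610 and 10879 to 880, 2542, 2394 and 4346 normalized counts, and with single peptide from 15.2, 31.0, 60.0 and 41.7 to 5.82, 3.84, 5.70 and 15.8. The groups overlapped only with single peptide, through tag A with DMSO at 15.2. It lies in a cluster of granzymes of similar sequence, between which the authors' counting may have divided shared reads. *Csf1*, the macrophage growth factor, fell from 2288, 2639, 2813 and 3082 to 399, 978, 943 and 889 with repeat peptide. With single peptide it was low in both groups (5.83 to 43.0 and 3.15 to 16.1), and the single peptide fit alone gave an adjusted p of 0.138 for a fold change of -1.46.

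*Myh10*, a nonmuscle myosin heavy chain, had the smallest p of the falling genes (adjusted p = 5.02e-06). Its values were 1495, 1609, 2075 and 2037 in repeat DMSO, 523, 652, 636 and 678 in repeat ibrutinib, 74.7, 87.5, 66.5 and 56.9 in single DMSO and 23.3, 34.5, 30.4 and 19.98 in single ibrutinib. The groups did not overlap in either stimulation, and the effects of -1.53 and -1.41 differed by -0.14 (interval -0.66 to 0.38). *Ptpn5*, a tyrosine phosphatase that acts on ERK, fell by 1.65 (SE 0.27, adjusted p = 0.00227), from 1264 to 1581 to 335 to 604 normalized counts with repeat peptide. *Sema6d*, a semaphorin, fell by 1.42 (SE 0.19), and its 4 single ibrutinib libraries at 15.2 to 19.98 lay below its 4 DMSO libraries at 45.6 to 87.5.

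*Fads2*, the delta-6 desaturase of polyunsaturated fatty acids, had a fold change of -1.90 ± 0.52 (adjusted p = 0.0280), but its levels differed widely between tags, from 427 to 1690 in repeat DMSO. It lost its call when any 1 of 5 libraries was left out, with a highest adjusted p of 0.0705 without the repeat DMSO library of tag A. *Zfp768*, a zinc finger protein, and *Fam81a* fell by 1.35 (SE 0.24) and 1.37 (SE 0.31). *Ehd4*, an endosomal membrane ATPase, had the smallest change of the 5 falling genes with the smallest p. It fell from 1882 to 2226 to 976 to 1415 with repeat peptide and from 570 to 767 to 358 to 491 with single peptide, with all 8 pair ratios between -0.99 and -0.60. *Sdc1*, the proteoglycan syndecan-1, fell by 1.56 (SE 0.18, adjusted p = 1.72e-04), almost wholly from repeat peptide values of 564 to 1207 against 184 to 406, since its single peptide values did not exceed 23.7.

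The promoters of the 2 rising and 2 falling genes with the largest shared change are shown as the annotated start regions of the genes whose counts moved most in both stimulations. The counts are per gene and do not show which start site was used. Each window runs from 250 bases before to 50 bases after the RefSeq transcription start on build GRCm38.p6, and is written 5′ to 3′ on the strand of the gene. Capitals mark matches to any of 13 motifs searched on both strands.
*Nipa1*, chr7:56019551-56019850, minus strand: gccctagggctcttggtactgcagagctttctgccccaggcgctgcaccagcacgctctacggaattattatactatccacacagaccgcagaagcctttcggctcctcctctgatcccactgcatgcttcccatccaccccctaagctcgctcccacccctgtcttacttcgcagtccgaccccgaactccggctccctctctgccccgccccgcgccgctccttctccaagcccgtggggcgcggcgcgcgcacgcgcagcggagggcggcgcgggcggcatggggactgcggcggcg
*Slc6a19*, chr13:73692587-73692886, minus strand: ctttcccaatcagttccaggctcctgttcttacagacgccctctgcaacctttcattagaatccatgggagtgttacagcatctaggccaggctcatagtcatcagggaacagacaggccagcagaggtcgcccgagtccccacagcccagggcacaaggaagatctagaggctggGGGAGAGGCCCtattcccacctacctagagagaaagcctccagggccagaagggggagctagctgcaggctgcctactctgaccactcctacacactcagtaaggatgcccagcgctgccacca
*Ifng*, chr10:118440796-118441095, plus strand: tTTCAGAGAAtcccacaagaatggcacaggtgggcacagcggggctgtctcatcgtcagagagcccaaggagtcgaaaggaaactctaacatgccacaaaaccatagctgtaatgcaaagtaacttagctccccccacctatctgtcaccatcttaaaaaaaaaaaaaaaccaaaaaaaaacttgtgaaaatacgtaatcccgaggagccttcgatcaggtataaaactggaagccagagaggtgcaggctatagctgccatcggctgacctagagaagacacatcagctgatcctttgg
*Gzmc*, chr14:56234608-56234907, minus strand: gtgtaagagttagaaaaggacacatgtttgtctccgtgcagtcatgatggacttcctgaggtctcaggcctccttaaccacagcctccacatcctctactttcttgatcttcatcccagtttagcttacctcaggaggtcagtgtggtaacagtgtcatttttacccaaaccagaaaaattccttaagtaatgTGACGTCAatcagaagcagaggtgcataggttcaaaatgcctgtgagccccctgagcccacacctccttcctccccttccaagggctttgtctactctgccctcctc
The *Nipa1* window held no match to the 13 motifs, and its start lies 354 bases from the outermost start of the gene in the GENCODE annotation. In the *Slc6a19* window 2 overlapping matches to the NF-κB letters (GGG and CC with any 5 bases between them) form 1 run of capitals, and its start lies 12229 bases from the outermost GENCODE start. The *Ifng* window held 1 match to the STAT letters TTCNNNGAA and the *Gzmc* window 1 match to the CRE letters TGACGTCA. A match is a description of the sequence and not a site.

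Of the tested genes, 9504 had a promoter window, among them 469 of the rising and 507 of the falling genes. The share with a match was close to that of all tested promoters for most motifs. AP-1 (TGANTCA) was found in 3.62% of rising, 3.94% of falling and 4.47% of all promoters, CRE in 3.41%, 3.94% and 3.36%, and NFAT (GGAAAA) in 21.5%, 20.9% and 20.8%. The NF-κB letters were in 71.6%, 66.3% and 67.7%. The E-box CACGTG was in 12.8%, 7.89% and 10.3%, the FOXO letters GTAAACA in 3.84%, 2.17% and 2.44%, and the STAT letters in 4.48%, 7.5% and 6.81%. The interferon response letters (GAAA, any 2 bases and GAAA) were in 1.49%, 3.75% and 3.17%, and the EGR letters (GCG, TGG and GCG in a row) in 2.13%, 0.592% and 1.27%. The sterol letters TCACNCCAC, antioxidant letters TGACNNNGC, heat shock letters GAANNTTC and TCF letters CTTTGAT were in 1.07% and 0.789%, 16.8% and 17.4%, 5.54% and 5.52%, and 2.56% and 2.76% of rising and falling promoters, against 1.0%, 14.8%, 5.63% and 2.43% of all.

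The gene lists used from here on were chosen with earlier results of these data known, and some genes are in several lists. Their shares beside those of all tested genes are therefore descriptions and not tests of enrichment. Many but not most genes induced by TCR signaling fell. Of 40 tested members of a list of such genes 18 fell (45.0%, against 8.4% of all tested genes), 1 rose and 21 did not pass the test, and 12 of the fallers fell in all 8 pairs (5.05% of all tested genes). The median log2 fold change of the list was -0.50. The count of 18 was 14 without the repeat DMSO library of tag A. The NR4A nuclear receptors, which TCR signals induce within hours, all 3 fell in every pair. *Nr4a3* went from 2624, 1805, 3180 and 3510 to 956, 877, 1581 and 1248 normalized counts with repeat peptide and from 300, 178, 283 and 157 to 67.0, 56.6, 85.5 and 61.0 with single peptide, with no overlap in either (-1.46 ± 0.14, adjusted p = 1.41e-04). *Nr4a1* and *Nr4a2* fell by 1.41 (SE 0.21) and 0.92 (SE 0.10).

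*Irf4*, a transcription factor whose level follows TCR signal strength, had 5130, 4112, 5621 and 6392 normalized counts in repeat DMSO and 2019, 2322, 2403 and 2691 in repeat ibrutinib. With single peptide it had 1181, 1127, 894 and 890 with DMSO and 436, 678, 534 and 400 with ibrutinib. The ibrutinib libraries lay below the DMSO libraries in both stimulations (-1.09 ± 0.12, adjusted p = 2.53e-04), and the effects of -1.16 and -1.01 differed by -0.17 (interval -0.69 to 0.35). *Tnfrsf9*, the costimulatory receptor 4-1BB, fell by 1.56 (SE 0.20), *Egr3* by 1.01 (SE 0.21) and its corepressor *Nab2* by 0.44 (SE 0.11). The IL-2 receptor chain *Il2ra* fell by 0.60 (SE 0.16), the ERK phosphatase *Dusp6* by 0.66 (SE 0.17) and the repressors *Bhlhe40* and *Nfil3* by 1.02 (SE 0.20) and 0.37 (SE 0.09). *Irf8*, a related interferon regulatory factor, fell in every pair but more with single than with repeat peptide, by 2.75 against 1.09 on the log2 scale (adjusted p of the difference 0.00240).

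**Figure D4:**
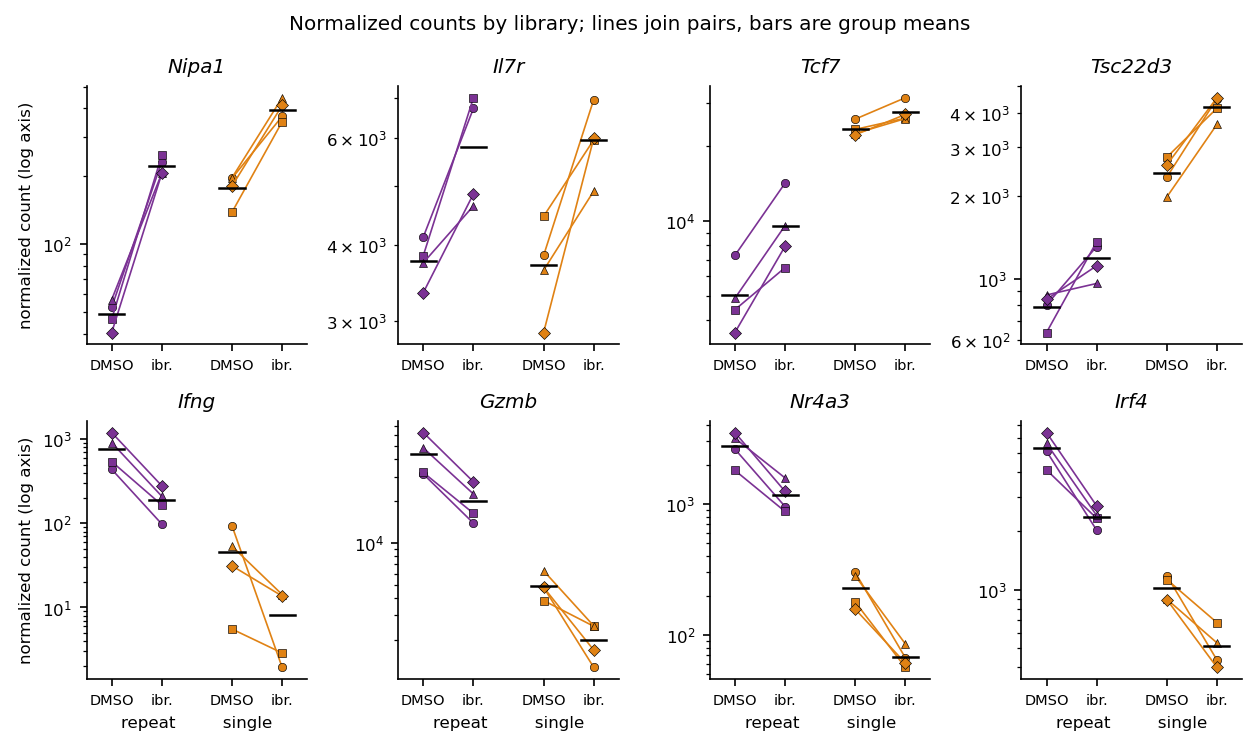
Normalized counts (vertical log axis) in the 16 libraries for *Nipa1*, *Il7r*, *Tcf7*, *Tsc22d3*, *Ifng*, *Gzmb*, *Nr4a3* and *Irf4*, with repeat peptide in purple and single peptide in orange. Thin lines join the DMSO and ibrutinib libraries of 1 tag and black bars are group means of 4 libraries. All lines of the upper genes rise and all lines of the lower genes fall, from starting levels that differ between the stimulations for each gene except *Il7r*.

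More inhibitory receptors fell than rose. Of 17 tested receptors and ligands 7 fell (41.2%, against 8.4% of all tested genes), 2 rose (11.8%, against 7.83%) and 8 did not pass. The share that rose was thus near that of all tested genes. The fall was in all 8 pairs for 2 of the 7 (5.05% of all tested genes), *Lag3* and *Tigit*. *Lag3*, which binds MHC class II, had 8301, 7715, 9526 and 7997 normalized counts in repeat DMSO and 4316, 3778, 5815 and 4741 in repeat ibrutinib. At the much lower level of single peptide stimulated cells it had 368, 387, 512 and 261 with DMSO and 145, 229, 228 and 125 with ibrutinib (-0.94 ± 0.11, adjusted p = 1.93e-04). The groups did not overlap in either stimulation. *Tigit* went from 3030, 3464, 3440 and 2664 to 1212, 1565, 1978 and 1453 and from 184, 207, 190 and 161 to 45.6, 128, 63.6 and 24.2, again without overlap (-1.23 ± 0.18, adjusted p = 0.00133).

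*Pdcd1*, which encodes PD-1, did not move one way in all pairs. It fell from 8272, 11247, 8628 and 12584 to 3659, 4768, 4262 and 5782 with repeat peptide. With single peptide it had 202, 141, 138 and 191 with DMSO and 118, 178, 155 and 98.8 with ibrutinib, higher in 2 of 4 pairs. Its fold change over both stimulations was -0.79 ± 0.18 (adjusted p = 0.0117), and the difference of -0.86 between the stimulations (interval -1.40 to -0.31) had an adjusted p of 0.0686. *Vsir*, which encodes VISTA, and *Nt5e*, which encodes the adenosine producing enzyme CD73, rose in all 8 pairs by 0.54 ± 0.08 and 0.54 ± 0.12. The count of 7 falling receptors was 4 without the repeat DMSO library or without the repeat ibrutinib library of tag A.

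Among 20 tested cytokines and chemokines 6 fell (30.0%, against 8.4% of all tested genes), 2 rose (10%, against 7.83%) and 12 did not pass. The median log2 fold change was -0.57. The count of 6 was 4 without the repeat ibrutinib library of tag B. *Lif*, a cytokine of the IL-6 family, fell in all 8 pairs by 2.14 (SE 0.49), with effects of -1.02 with repeat and -3.69 with single peptide (adjusted p of the difference 0.00661). *Tnfsf14*, which encodes LIGHT, fell by 0.67 (SE 0.13), and *Ltb*, the membrane lymphotoxin chain, rose by 0.62 ± 0.15. The *Ltb* rise was 1.01 with repeat and 0.24 with single peptide. It was the only rise in all 8 pairs among the cytokines, and the count of 2 risers was 1 when any 1 of 9 libraries was left out, among them each of the 4 repeat ibrutinib libraries.

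Of 19 cytotoxic granule genes 4 fell (21.1%, against 8.4% of all tested genes) and 15 did not pass. *Gzmb*, the main apoptosis inducing granzyme, had 31293, 32120, 48304 and 62308 normalized counts in repeat DMSO and 13851, 16313, 22480 and 27513 in repeat ibrutinib. With single peptide it had 4775, 3834, 6281 and 4772 with DMSO and 1266, 2502, 2518 and 1686 with ibrutinib. The groups did not overlap in either stimulation (-1.21 ± 0.15, 2.32-fold lower, adjusted p = 5.07e-04), and the effects of -1.11 and -1.33 differed by 0.20 (interval -0.42 to 0.82). *Serpinb6b*, a serpin of the granule protease inhibitor family with close paralogs, fell by 0.68 (SE 0.13).

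Among 19 tested transcription factors of effector and exhausted T cells 3 fell (15.8%, against 8.4% of all tested genes), 2 rose (10.5%, against 7.83%) and 14 did not pass. *Tox*, which maintains the exhausted state, went from 1945, 1921, 1734 and 1261 to 975, 962, 1376 and 881 with repeat peptide and from 277, 333, 279 and 260 to 142, 222, 241 and 143 with single peptide. The single peptide groups did not overlap and the repeat peptide groups did, through tag C with ibrutinib at 1376 and tag D with DMSO at 1261. The fold change was -0.68 ± 0.10 (adjusted p = 7.91e-04), and the effects of -0.71 and -0.65 differed by -0.07 (interval -0.50 to 0.36). *Prdm1*, which encodes BLIMP-1, fell by 1.07 (SE 0.22) and *Ikzf2*, which encodes HELIOS, had -0.61 ± 0.17 and lost its call when any 1 of 7 libraries was left out (highest adjusted p 0.0612). *Rora* rose by 0.61 ± 0.12 and *Runx1* by 0.76 ± 0.17, but with an offset for the effective transcript length *Runx1* had a fold change of -0.74 (adjusted p = 0.339).

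Most genes linked to FOXO factors rose in the fit of all 16 libraries. Of 25 tested members 17 rose (68.0%, against 7.83% of all tested genes) and 8 did not pass. Of the risers 13 rose in all 8 pairs (4.87% of all tested genes). Median fold changes of the list were 0.43 with repeat and 0.38 with single peptide. The count of 17 was 12 without the repeat ibrutinib library of tag B. *Il7r*, the IL-7 receptor α chain, had the second smallest p of the rising genes. It had 4130, 3849, 3745 and 3345 normalized counts in repeat DMSO and 6720, 6997, 4644 and 4860 in repeat ibrutinib, and 3850, 4465, 3640 and 2875 against 6950, 5965, 4912 and 6002 with single peptide. The groups did not overlap in either stimulation, and the effects of 0.60 and 0.69 differed by -0.09 (interval -0.40 to 0.22). Over both the log2 fold change was 0.65 ± 0.07 (adjusted p = 1.72e-04).

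*Tsc22d3*, which encodes the leucine zipper protein GILZ, went from 802, 637, 872 and 840 to 1309, 1361, 960 and 1114 with repeat peptide and from 2340, 2765, 1981 and 2593 to 4520, 4166, 3640 and 4550 with single peptide, with no overlap (0.69 ± 0.09, adjusted p = 3.79e-04). *Pik3ip1*, an inhibitor of PI3 kinase, rose by 0.70 ± 0.10, *Sesn1*, a stress induced inhibitor of mTORC1, by 0.53 ± 0.07 and *Txnip*, an inhibitor of glucose uptake, by 0.52 ± 0.08. *Foxo1* itself rose by 0.44 ± 0.07, the cell cycle inhibitor *Cdkn1b* by 0.49 ± 0.07, the antiproliferative *Btg1* by 0.41 ± 0.09 and the mitophagy kinase *Pink1* by 0.41 ± 0.07. The smallest adjusted p of the interaction among these 8 genes was 0.187, for *Pik3ip1*.

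Of 25 tested genes of memory and lymph node homing 11 rose (44.0%, against 7.83% of all tested genes) and 14 did not pass. The lists are not separate: the risers *Ccr7*, *Foxo1*, *Il7r*, *Klf2* and *S1pr1* were also counted in the FOXO list, and *Il7r* in the JAK-STAT list. The median fold change was 0.69 with repeat and 0.14 with single peptide. The count of 11 was 8 without the repeat DMSO library of tag B. *Tcf7*, which encodes the memory and progenitor factor TCF1, had 7287, 4406, 4900 and 3568 normalized counts in repeat DMSO and 14230, 6508, 9597 and 7927 in repeat ibrutinib. With single peptide it had 25747, 23406, 22527 and 22263 with DMSO and 31386, 25982, 25877 and 26873 with ibrutinib. The single peptide groups did not overlap and the repeat peptide groups did, through tag A with DMSO at 7287 and tag B with ibrutinib at 6508. The rise of 0.57 ± 0.14 (adjusted p = 0.0119) was made up of 0.91 with repeat and 0.23 with single peptide, which differed (adjusted p = 0.0417).

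Several homing genes followed *Tcf7* in rising more with repeat peptide. *S1pr1*, the receptor for exit from lymphoid tissue, rose by 2.04 and 0.41 (adjusted p of the difference 0.01001). *Klf2*, its activator, had effects of 1.38 and 0.36 with an adjusted p of the difference of 0.0572. *Itgae*, the integrin chain CD103, had the largest fold change over both stimulations among the 595 rising genes (1.65 ± 0.47, adjusted p = 0.0350), with 3.34 and 0.58, and lost its call when any 1 of 11 libraries was left out (highest adjusted p 0.0733). *Ccr7*, the lymph node homing receptor, had even effects of 0.43 and 0.45.

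Most cell cycle genes fell. Of 40 tested members 30 fell (75.0%, against 8.4% of all tested genes), 1 rose and 9 did not pass. Of the fallers 22 fell in all 8 pairs (5.05% of all tested genes). The one that rose was the inhibitor *Cdkn1b*. The median fold change was -0.28 with repeat and -0.90 with single peptide. In the fits of each stimulation alone, 11 were called lower and 2 higher with repeat, and 34 lower and 1 higher with single peptide. Over all tested genes these fits called 6.85% lower and 7.61% higher with repeat, and 9.2% lower and 7.17% higher with single peptide. The interaction test was called for 12 of the 40, each with a lower fold change in single peptide stimulated cells. Over all tested genes it was called for 677 (5.54%), and 543 of these had that direction. *Mki67*, the proliferation antigen, fell by 0.34 with repeat and 1.56 with single peptide (adjusted p of the difference 0.0109), the licensing factor *Cdc6* by 0.43 and 1.72, the mitotic regulator *Foxm1* by 0.26 and 1.35, and the ribonucleotide reductase subunit *Rrm2* by 0.36 and 1.36. The kinase inhibitor *Cdkn1a*, a p53 target, had -2.44 with repeat and -0.61 with single peptide (adjusted p of the difference 0.133), and lost its call without the repeat ibrutinib library of tag B (adjusted p 0.0542). The count of 30 was 9 without tag B and 13 without tags C and D.

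Some of the genes of sterol synthesis fell. Of 36 tested genes of sterol and lipid synthesis 14 fell (38.9%, against 8.4% of all tested genes), 1 rose and 21 did not pass. Of the 14 fallers 13 fell in all 8 pairs (5.05% of all tested genes). *Fdft1*, squalene synthase, fell by 0.62 (SE 0.09), with effects of -0.61 and -0.64. *Hmgcs1*, a synthase of the mevalonate pathway, fell by 0.71 (SE 0.15), *Mvk* and *Pmvk*, which phosphorylate mevalonate, by 0.52 and 0.53 (SE 0.10 each), and *Fdps*, which makes farnesyl diphosphate, by 0.90 (SE 0.20). *Sqle*, squalene epoxidase, fell by 0.69 (SE 0.16). *Mylip*, a ligase that degrades the LDL receptor, rose by 0.56 ± 0.15. It had the smallest adjusted p of the interaction among the genes named from this list, 0.0973. The count of 14 was 9 without the repeat DMSO library of tag A or the single ibrutinib library of tag C or D, 5 without tag C and 23 in a fit with each of the 8 pairs as a block.

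Of 32 glycolysis and hypoxia genes 10 fell (31.2%, against 8.4% of all tested genes), 1 rose and 21 did not pass. The count of 10 was 8 without the repeat DMSO library of tag D. The 8 that fell in all pairs (5.05% of all tested genes) included the consecutive enzymes *Gapdh* (-0.43 ± 0.08), *Pgk1* (-0.50 ± 0.09), *Pgam1* (-0.45 ± 0.07) and *Eno1* (-0.41 ± 0.09). *Ldha*, lactate dehydrogenase, fell by 0.47 (SE 0.10), and *Tpi1*, which interconverts the triose phosphates, by 0.75 (SE 0.13). *Slc16a3*, the lactate exporter MCT4, had -1.05 ± 0.27 and lost its call without the repeat DMSO or the single ibrutinib library of tag D (adjusted p up to 0.0527). *Pdk1*, a kinase that limits entry of pyruvate into mitochondria, rose by 0.30 ± 0.08.

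Of 30 genes of the ATF4 and unfolded protein responses 12 fell (40.0%, against 8.4% of all tested genes), 1 rose and 17 did not pass. *Atf4* itself fell by 0.45 (SE 0.09), the mitochondrial folate enzyme *Mthfd2* by 0.46 (SE 0.06), the serine synthesis enzyme *Psat1* by 0.47 (SE 0.08) and the chaperone *Hspa5*, or BiP, by 0.41 (SE 0.06). *Dnajb9*, a BiP cochaperone, rose by 0.39 ± 0.09. The count of 12 was 6 without the repeat ibrutinib library of tag B and 7 without the single ibrutinib library of tag D.

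**Figure D5:**
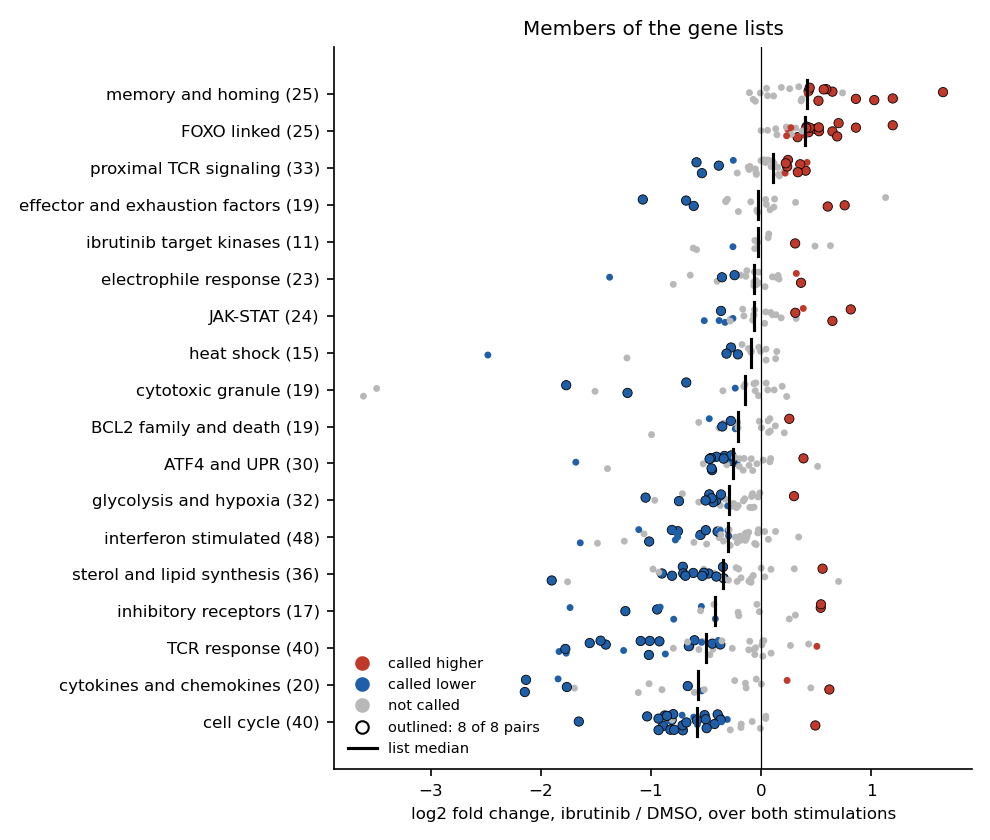
Log2 fold change over both stimulations (horizontal axis) of each tested member of the 18 gene lists, ordered by list median (black bars), with the number tested in parentheses. Red and blue points were called higher and lower, grey points were not called, and outlined points also moved one way in all 8 pairs. Red points dominate the called members of the memory and FOXO lists and blue points those of the cell cycle, cytokine, TCR response and sterol lists.

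Of 48 interferon stimulated genes 17 fell (35.4%, against 8.4% of all tested genes) and 31 did not pass. Of the fallers 6 fell in all 8 pairs (5.05% of all tested genes). *Irf7*, the master factor of type I interferon genes, fell by 0.76 (SE 0.09, adjusted p = 1.72e-04), with effects of -0.69 and -0.81. The ubiquitin-like *Isg15* fell by 0.81 (SE 0.15), the 2′-5′ oligoadenylate synthetase *Oas1a*, which has close paralogs, by 1.02 (SE 0.19), the RNA sensor *Dhx58* by 0.50 (SE 0.09) and the virion tether *Bst2* by 0.55 (SE 0.09). The interaction was called for 20 of the 48, each with a higher fold change in repeat peptide stimulated cells. Over all tested genes it was called for 677 (5.54%), and 543 of these had that direction. With single peptide alone 41 of the 48 were called lower (median -0.70), whereas with repeat peptide alone 13 were called higher and 8 lower (median -0.06). Over all tested genes 9.2% were called lower with single peptide alone, and 7.61% higher and 6.85% lower with repeat peptide alone. The count of 17 was 10 without the single ibrutinib library of tag D.

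Transcripts of the kinases that ibrutinib binds were examined next. Of 11 tested genes of the list 1 rose and 1 fell (9.09% each, against 7.83% and 8.4% of all tested genes) and 9 did not pass, and *Btk*, *Bmx*, *Egfr*, *Erbb2* and *Erbb4* were too low to test, with at most 27 counts in any library. *Tec* rose in all 8 pairs by 0.31 ± 0.07 (adjusted p = 0.0111). It had 739, 682, 436 and 496 normalized counts in repeat DMSO and 808, 956, 494 and 636 in repeat ibrutinib, and 1467, 1524, 892 and 1181 against 1909, 1564, 1089 and 1760 with single peptide, so that the groups overlapped and only the pairs separated them. *Jak3* had -0.26 ± 0.08 (adjusted p = 0.0334), from 5523 to 7221 to 4274 to 5096 with single peptide and a fold change of -0.07 with repeat peptide. It was lower in 7 of 8 pairs and lost its call when any 1 of 11 libraries was left out.

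The Src family kinase *Lck* had a log2 fold change of 0.07 ± 0.06 (adjusted p = 0.441). *Txk* had effects of 1.19 with repeat and -0.15 with single peptide, which differed (adjusted p = 0.00142). The B cell kinase *Blk* had a maximum of 62.0 normalized counts and a fold change of 0.63 ± 0.57, and *Lyn* had -0.62 ± 0.24 (adjusted p = 0.0838).

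Of 33 proximal TCR signaling genes 9 rose (27.3%, against 7.83% of all tested genes), 4 fell (12.1%, against 8.4%) and 20 did not pass. The share that fell was thus near that of all tested genes. Those that rose in all 8 pairs included *Plcg1*, the phospholipase that Tec kinases phosphorylate (0.24 ± 0.06), *Prkcq*, which encodes protein kinase C-θ (0.24 ± 0.05), *Themis*, a TCR signaling adaptor (0.33 ± 0.06), and *Dgka*, which removes diacylglycerol (0.40 ± 0.06). Fallers in all 8 pairs were *Ptpn6*, the phosphatase SHP-1 (-0.59 ± 0.07, adjusted p = 1.72e-04), *Ubash3b*, the phosphatase STS-1 (-0.54 ± 0.06), and the adaptor *Sh2d2a* (-0.38 ± 0.05). Of these 7 fold changes each was below 0.6 in absolute size. The count of 9 was 5 without the repeat ibrutinib library of tag A.

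In the remaining lists shares are given against 7.83% of all tested genes higher and 8.4% lower. Of 24 JAK-STAT genes 4 rose (16.7%), 5 fell (20.8%) and 15 did not pass. The cytokine feedback inhibitor *Socs3* rose by 0.81 ± 0.17 and *Jak1* by 0.31 ± 0.08, and *Stat3* fell by 0.36 (SE 0.09). The 5 fallers were 3 without the single ibrutinib library of tag C. Of 19 BCL2 family and death genes 1 rose (5.26%), 4 fell (21.1%) and 14 did not pass. *Mcl1*, an antiapoptotic protein, rose by 0.26 ± 0.05, while the proapoptotic *Pmaip1*, or NOXA, fell by 0.35 (SE 0.08) and *Casp8* by 0.27 (SE 0.07). Of 23 genes of the electrophile response 2 rose (8.7%), 3 fell (13.0%) and 18 did not pass, with the glutathione synthesis subunit *Gclc* at 0.36 ± 0.06 and the pentose phosphate enzyme *Tkt* at -0.36 ± 0.08, and the 2 risers were 1 without the repeat ibrutinib library of tag B. Of 15 heat shock genes 4 fell (26.7%) and 11 did not pass, among the fallers *Hsp90aa1* (-0.27 ± 0.07) and *Hspd1* (-0.31 ± 0.07), and the count was 2 without the repeat DMSO library of tag D.

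A further pair of genes had among the smallest p of the risers and even effects. *Mbp*, whose golli transcripts are expressed in T cells, rose by 0.44 ± 0.05 (adjusted p = 2.15e-04), from 2929 to 3445 to 3985 to 5178 with repeat peptide and from 4976 to 6425 to 6541 to 7919 with single peptide. *AI467606*, a protein-coding gene, rose by 0.45 ± 0.06 (adjusted p = 3.02e-04), with 1857, 2087, 1624 and 1848 against 3057, 2876, 2014 and 2688 and with 4281, 4083, 2874 and 4060 against 5994, 5104, 3978 and 4927. The groups of *Mbp* did not overlap in either stimulation. Those of *AI467606* overlapped in both, through the lower values of tag C.

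The size of the effect differed between the stimulations for a minority of the genes that moved one way in all pairs. The interaction of drug and stimulation was called for 677 of the tested genes (5.54%), with a higher fold change in repeat peptide stimulated cells for 543 of them and a lower one for 134. Of the 1212 genes called and of 1 direction in all 8 pairs, 144 (11.9%) had a called interaction. All 50 rising genes among these rose more with repeat peptide in this fit, while 92 of the 94 falling genes fell more with single peptide and 2 fell more with repeat peptide.

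The rising genes with the smallest interaction p were *Klf3*, *A430078G23Rik* and *Tnfrsf26*. *Klf3*, a Krüppel-like repressor, went from 232, 375, 250 and 157 to 1445, 1226, 749 and 535 with repeat peptide and from 4606, 4908, 3631 and 3399 to 5609, 5758, 3909 and 4462 with single peptide. The effects of 1.92 and 0.25 differed by 1.65 (interval 1.15 to 2.16, adjusted p = 9.43e-04), and its call over both stimulations was lost when any 1 of 7 libraries was left out (highest adjusted p 0.0662). *Tnfrsf26*, a decoy receptor of the TNF family, rose by 1.37 and 0.28, and *A430078G23Rik* by 1.05 with repeat peptide against 0.17 (adjusted p = 0.120) with single peptide.

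The falling genes with the smallest interaction p act in DNA replication and repair. *Dtl*, a substrate receptor for replication-coupled degradation, went from 3237, 2334, 3138 and 2868 to 2226, 1748, 2677 and 2508 with repeat peptide and from 914, 645, 1270 and 1105 to 245, 243, 491 and 326 with single peptide. Only the single peptide groups were free of overlap, and the effects of -0.34 and -1.61 differed by 1.24 (interval 0.88 to 1.61, adjusted p = 5.66e-04). *Brip1*, a helicase partner of BRCA1, had -0.31 and -1.38, and *Pole*, the leading strand polymerase, -0.21 and -1.02. Interaction counts were 443 without the repeat ibrutinib library of tag A and between 248 and 683 without a whole tag.

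The 2 libraries of the series that had no partner took no part in any fit above and were compared with the genes found. The DMSO means used as reference come from libraries that also chose these genes. A library of either treatment can therefore lie on the ibrutinib side of them, and the shares below are only a description. In the repeat ibrutinib library of the tag btk KO-5, 90.8% of the 595 rising genes lay above the mean of the 4 repeat DMSO libraries and 6.48% of the 617 falling genes did, against 48.4% of all tested genes. The median log2 difference from the DMSO mean was 0.51 for the rising and -0.75 for the falling genes. In the single DMSO library of the tag PKC igoni-2, 69.4% of the rising and 20.7% of the falling genes lay above the mean of the 4 single DMSO libraries, against 51.9% of all tested genes. This untreated library was nearer to the mean of the single ibrutinib libraries than to that of the single DMSO libraries for 48.6% of the rising and 56.2% of the falling genes, with 52.9% over all tested genes.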

How the data were processed

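RNA was taken from 18 cultures of mouse CD8+ T cells and sequenced as poly(A)-selected, directional libraries. Per the study's methods the authors trimmed reads with Trim Galore and aligned and counted them against GRCm38 with STAR and RSEM 1.3.1 in the nf-core/rnaseq pipeline. The strand setting of the counting is not given in the sources used here. The deposited values used are RSEM expected counts per gene, which are estimates that divide reads shared by similar genes, and these were rounded to whole numbers. The authors' RSEM tables also held TPM values as deposited, used only for an alternative form of the pair ratios. Totals ranged from 23449518 to 51995372 per library.

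Protein-coding genes and long noncoding RNAs were kept, filtered with filterByExpr, scaled by TMM and fitted with robust edgeR 4.0.16 quasi-likelihood models in R 4.3.3. The model had the genotype tag of the labels, stimulation and drug, and a second model added the interaction of drug and stimulation. Each stimulation was also fitted alone on its 8 libraries. A call needed a Benjamini-Hochberg adjusted p below 0.05, a mean of at least 50 normalized counts and an absolute log2 fold change above 0.2. Ratios within pairs are differences of log2 CPM with a prior count of 2. SE is the standard error of the log2 fold change, derived from the test as the absolute log2 fold change divided by the square root of the quasi-likelihood F statistic. The intervals of the interaction were built from the SE obtained in this way. The procedure was tested on simulated data.

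Libraries of 1 tag deviated together from their group means (r of 0.173 to 0.525 over 24 pairs of libraries, against -0.43 to 0.133 over 72 pairs from different tags), so tag was kept as a block. Any 2 libraries of a group differed by more than counting error (chi-square of 29.1 to 146.1 for each degree of freedom).

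The genes and lists described were chosen with earlier results of these data known. Named were the 10 rising and 10 falling genes with the largest shared change, the 5 of each direction with the smallest p, the 3 of each with the smallest interaction p, members of the lists that were called and moved one way in all 8 pairs, and the kinases of the ibrutinib target list, *Tcf7*, *Tox*, *Pdcd1*, *Lag3*, *Tigit* and *Irf4*. Shared change is the smaller of the fold changes of the 2 stimulations where they have 1 sign. Promoter sequences are from RefSeq. Alternatives used other scaling, filters, blocks, thresholds and tests (DESeq2 1.42.0, limma-voom 3.58.1), and left out libraries. Some genes are not reported here and were left out of the lists.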

Additional observations from a re-analysis of the deposited data

Results flagged for a closer look

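Single libraries stood apart from the other 3 of their group in 9 of 184 groups of 4 tested with Dixon's criterion, and chance flags about 1 in 20 groups. *Slc6a19* had 643.5 normalized counts in single ibrutinib of tag A against 177 to 200 in the others, and *Hpgds* 201.5 in repeat ibrutinib of tag B. *Gzmc* had 15.8 in single ibrutinib of tag D, *Csf1* 398.6 and *Zfp768* 54.6 in repeat ibrutinib of tag A, *AI467606* 2874 in single DMSO of tag C and *Sdc1* 23.7 in single DMSO of tag D. Total expected counts were 51995372 in repeat ibrutinib of tag D and 34852484 in single ibrutinib of tag C, each above the rest of its group.

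The effect of ibrutinib differed between repeat and single peptide stimulated cells for 24 named genes by the edgeR interaction test. The log2 fold change with repeat peptide minus that with single peptide was 1.04 for *Nipa1*, 2.54 for *Itgae*, 1.65 for *Klf3*, 1.60 for *S1pr1*, 1.08 for *Tnfrsf26*, 0.88 for *A430078G23Rik*, 0.83 for *Socs3*, 0.77 for *Ltb*, 0.69 for *Tcf7* and 0.63 for *Nt5e*, which rose over both stimulations. For the cell division and replication genes it was 1.27 for *Cdc6*, 1.24 for *Dtl*, 1.18 for *Mki67*, 1.07 for *Foxm1* and *Brip1*, 1.03 for *Birc5*, 0.98 for *Rrm2*, 0.95 for *Aurkb*, 0.80 for *Pole* and 0.60 for *E2f1*. It was 2.80 for *Lif*, 1.66 for *Irf8* and 0.49 for *Bst2*, which fell over both, and 1.32 for *Txk*, which was not called over both.

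Of the 2 libraries without a partner, the repeat ibrutinib library lay above the repeat DMSO mean for 90.8% of the rising and 6.48% of the falling genes. The single DMSO library lay above the single DMSO mean for 69.4% of the rising and 20.7% of the falling genes. Both DMSO means come from libraries that also chose these genes.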

How the results depend on the processing

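The direction of the 157 called genes named was kept in the alternatives run, except for *Runx1* (-0.74 with an offset for effective length), but calls were lost: 135 kept theirs whichever 1 library was left out, 85 whichever 1 tag was left out, 113 without the block and 14 in every alternative. Leaving out 1 library gave 1321 to 2116 called genes, 968 to 1372 of 1 direction in all pairs and 443 to 881 interactions. Leaving out 1 tag gave 878 to 1166, 787 to 1013 and 248 to 683, with 856 to 1743 for repeat and 1210 to 2282 for single peptide alone. Without tags C and D, an alternative chosen after seeing the data, as was leaving a tag out of the fits of 1 stimulation, the counts were 235, 230 and 245. An absolute log2 fold change above 1 left 124, 73 and 285. Pairing mattered: without the block for tag 879 genes and 157 interactions were called, and with each of the 8 pairs as a block 1995 genes were. With all 18 libraries and no block 1030 genes were called. A length offset gave 442 and DESeq2's Wald test 1032 interactions. A ratio above 0.1 in each pair left 624 genes, and the contrast for single peptide in the 4-group fit 1096. The cause of these shifts was not tested.

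Among kinases that did not pass the test, *Src* had 0.0061 without the block, 0.18 with the 8-pair block, 0.021 in the 4-group fit, 0.21 with limma-voom and 0.10 without tags C and D. With 1 library or tag left out *Src* ranged from -0.30 to 0.51, *Yes1* from -0.11 to 0.20 and *Csk* from -0.11 to 0.021. Without a tag, the memory list had 5 to 6 risers, the FOXO list 11 to 12, and the sterol list 5 to 18 and interferon list 9 to 14 fallers.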
